A study of Mus musculus with 2 samples.

Results

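The mir-9 and mir-124 families are neural microRNAs that the mouse genome carries in several copies. The rows examined here were Mir9-2, Mir9-3, Gm25641, Mir124a-1, Mir124a-2 and Mir124a-3, which are 6 of the 1973 microRNA gene rows counted in hindbrain. They were chosen by gene symbol, from the GENCODE annotation of their Ensembl identifiers, and not by their counts. Earlier results of these data were known when the choice was made. Mir9-1, the remaining mir-9 copy, has no row of its own. Gm25641 is annotated on the strand opposite Mir9-1, so its opposite-strand counts were taken, which are the reads on the strand of Mir9-1.

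Short RNA of under 30 nt, as the labels give the size range, was sequenced from hindbrain of healthy mouse embryos of strain B6NCrl at embryonic day 13.5, with males and females pooled. The 2 libraries, replicate 1 and replicate 2, form 1 group without treatment or genotype contrast, and both carry 1 donor identifier. The labels do not tell whether different litters were used, and part of their spread may be technical. The gene rows held 3006571 counts in replicate 1 and 4508244 counts in replicate 2, and levels are given as CPM, counts scaled to these totals. Mir10a and Mir10b, microRNAs of the Hox clusters that mark the hindbrain and trunk, were at ranks 2 and 6 of all rows by CPM.

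MicroRNAs are cut from a hairpin precursor as mature strands of about the length of a short read, one from the 5′ arm (5p) and one from the 3′ arm (3p). The seed, bases 2 to 8 of the mature strand, pairs with target messages. In the vertebrate brain miR-9 acts in neural progenitors and young neurons, where it lowers repressors of neuronal differentiation such as Hes1 and Nr2e1. miR-124 accumulates in neurons and lowers non-neuronal messages, among them that of the splicing repressor Ptbp1. Both are known as abundant microRNAs of the developing and adult brain, and each is made from 3 loci.

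The mir-9 sequences are shown because what the copies share decides which reads can be given to a single copy. The mature strands listed by RefSeq for GRCm38.p6 were the same letters at Mir9-1, Mir9-2 and Mir9-3, with the seed in capitals.
miR-9-5p: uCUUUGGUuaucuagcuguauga
miR-9-3p: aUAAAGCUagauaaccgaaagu
No other hairpin in the RefSeq table had a mature strand with either seed. The hairpins follow, with both mature strands in capitals. They lie on the plus strand at chr7:79505264-79505353 (Mir9-3), chr3:88215598-88215686 (Mir9-1) and chr13:83738814-83738885 (Mir9-2).
Mir9-3: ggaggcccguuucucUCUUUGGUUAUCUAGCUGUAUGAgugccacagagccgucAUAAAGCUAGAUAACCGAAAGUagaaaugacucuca
Mir9-1: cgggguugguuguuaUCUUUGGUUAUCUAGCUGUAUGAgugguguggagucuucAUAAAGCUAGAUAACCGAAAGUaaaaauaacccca
Mir9-2: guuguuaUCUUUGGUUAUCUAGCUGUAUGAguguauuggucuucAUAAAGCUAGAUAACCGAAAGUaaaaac

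The copies differ in the loop and in the bases next to the mature strands. A read of exactly mature miR-9-5p or miR-9-3p matches 3 loci. A read matches 1 annotated hairpin locus only if it carries further bases of the precursor. For miR-9-5p, 4 bases past the 3′ end were needed at every copy, and the last of the capitals below is the base that differs.
Mir9-3: ucuuugguuaucuagcuguaugaGUGC
Mir9-1: ucuuugguuaucuagcuguaugaGUGG
Mir9-2: ucuuugguuaucuagcuguaugaGUGU
For miR-9-3p the copies were unequal. Mir9-3 needed 2 further bases at the 3′ end, against 6 at Mir9-1 and 6 at Mir9-2.
Mir9-3: auaaagcuagauaaccgaaaguAG
Mir9-1: auaaagcuagauaaccgaaaguAAAAAU
Mir9-2: auaaagcuagauaaccgaaaguAAAAAC
On the 5′ side of miR-9-5p, 1 further base was enough at Mir9-3. Mir9-1 needed 8 there, 1 more than the Mir9-2 hairpin holds before its mature strand, so on that side no base of the Mir9-2 hairpin told it from Mir9-1. On the 5′ side of miR-9-3p the numbers were 3 at Mir9-3, 7 at Mir9-1 and 7 at Mir9-2.

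Every hairpin was read as overlapping stretches of 20 nt, and a stretch was called shared when it occurred on either strand of an annotated hairpin at another locus. Mir9-3 shared 13 of 71 stretches (18.3%), and all 13 were found at both other mir-9 loci. Mir9-1 shared 28 of 70 (40.0%) and Mir9-2 shared 28 of 53 (52.8%). Of these 28, 13 were common to all mir-9 copies and 15 joined only Mir9-1 and Mir9-2. By this measure Mir9-1 and Mir9-2 were closer to each other than either was to Mir9-3.

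The mir-124 copies shared 25 of 66 stretches at Mir124a-1 (37.9%), 30 of 90 at Mir124a-2 (33.3%) and 24 of 49 at Mir124a-3 (49.0%). In each, 19 of the shared stretches were found at both other copies. Every shared stretch of a mir-9 hairpin lay in another mir-9 hairpin or in Gm25641, and every shared stretch of a mir-124 hairpin lay in another mir-124 hairpin. The measure covers annotated hairpins and no other genome sequence.

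**Figure D1:**
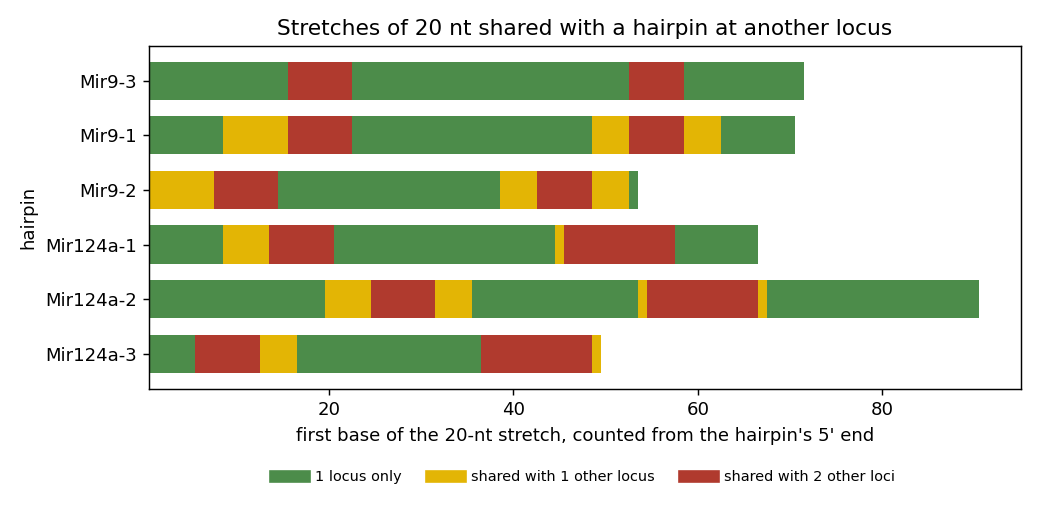
Shared stretches of 20 nt along each hairpin. The x axis gives the first base of the stretch counted from the hairpin's 5′ end, rows are hairpins, and colours give whether the stretch lies at 1 annotated locus only, at 1 other locus or at 2 other loci. Mir9-3 has 13 shared stretches, against 28 in Mir9-1 and 28 in Mir9-2.

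Mir9-3 was the best counted of the 6 rows. It had 1583 counts in replicate 1 and 2791 counts in replicate 2, which is 527 CPM (95% Poisson interval 501 to 553) and 619 CPM (596 to 642), a mean of 573 ± 65.5 CPM (SD, n = 2). The hairpin (ENSMUSG00000093238.1) lies in an intron of the long non-coding host gene Mir9-3hg. Intervals cover counting error only, and reads may repeat molecules. In whole hindbrain, fewer cells that make a microRNA and less of it per cell cannot be told apart.

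The strand of Mir9-1 was counted through Gm25641 (ENSMUSG00000092876.1), annotated on the minus strand at chr3:88215589-88215696. It held 160 opposite-strand counts in replicate 1 and 283 in replicate 2, or 53.2 CPM (45.3 to 62.1) and 62.8 CPM (55.7 to 70.5), a mean of 58.0 ± 6.76 CPM (SD, n = 2). On its own annotated strand Gm25641 had 0 counts in both libraries. For reads given to that strand alone, this sets a limit of 0.998 CPM in replicate 1 and 0.665 CPM in replicate 2, at 3 counts a library. RefSeq names the minus-strand gene mir-9b-1, whose mature strands also recur opposite other mir-9 copies.

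The share of opposite-strand counts at Gm25641 was therefore 100% in both libraries, with exact binomial 95% intervals from 97.7% in replicate 1 and from 98.7% in replicate 2. Over all gene rows the opposite strand held 1.88% and 1.90% of the either-strand counts in replicates 1 and 2. Mir9-3 had 1 opposite-strand count in each library and Mir9-2 had 0. On the plus strand the Mir9-1 locus lies in an intron of the long non-coding gene Gm3764.

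Mir9-2 had almost no counts, 9 in replicate 1 and 15 in replicate 2. These are 2.99 CPM (1.37 to 5.68) and 3.33 CPM (1.86 to 5.49), a mean of 3.16 ± 0.236 CPM (SD, n = 2). The whole hairpin (ENSMUSG00000065424.1) lies in an exon of the long non-coding host C130071C03Rik. The Ensembl version of this row and of Mir124a-3 differs from the one in GENCODE M21, so their counted intervals may differ from the coordinates given.

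The division of counts among the mir-9 copies was the same in both libraries. Mir9-3 took 90.4% of the mir-9 counts in each, with exact binomial intervals of 88.9 to 91.7% in replicate 1 and 89.3 to 91.4% in replicate 2. The Mir9-1 strand took 9.13% (7.82 to 10.6%) and 9.16% (8.17 to 10.2%), and Mir9-2 took 0.514% (0.235 to 0.973%) and 0.486% (0.272 to 0.800%). None of these intervals overlapped that of another copy.

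Levels of different rows were compared per 100 nt of the annotated hairpin, since the rows run from 68 to 109 nt. Reads of under 30 nt cover only part of a hairpin, so this scale is a choice, and some orders differ from those by CPM. For the Gm25641 row the length is the 108 nt of the minus-strand annotation, while the Mir9-1 hairpin is 89 nt. The Mir9-3 hairpin is 90 nt, so the ratios by counts below set nearly equal hairpin lengths side by side. Per length, Mir9-3 was 11.9-fold above the Gm25641 row in replicate 1 (counting interval 10.1 to 14.1) and 11.8-fold in replicate 2 (10.5 to 13.4). The Gm25641 row in turn was 11.9-fold above Mir9-2 in replicate 1 (6.09 to 26.4) and 12.6-fold in replicate 2 (7.50 to 22.8). By counts, Mir9-3 over Gm25641 was 9.89 (8.40 to 11.7) and 9.86 (8.72 to 11.2) in replicates 1 and 2. Gm25641 over Mir9-2 was 17.8 (9.13 to 39.6) and 18.9 (11.2 to 34.2). The order of the copies by counts ran opposite to the order of their shared-stretch shares. Mir9-1 and Mir9-2 shared 28 stretches each, however, so their shares of 40.0% and 52.8% differ only through hairpin length. The part of sequence sharing in the unequal counts was not tested.

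**Figure D2:**
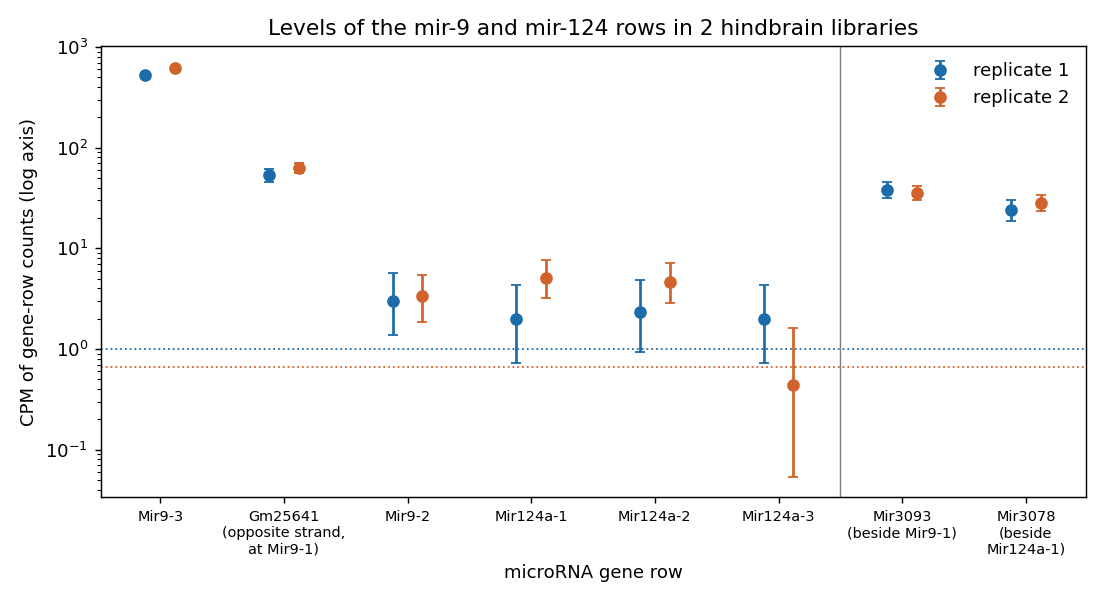
CPM of gene-row counts on a log axis for the 6 rows (left of the line) and for Mir3093 and Mir3078, which lie beside Mir9-1 and Mir124a-1 (right of the line). Points are single libraries, bars are exact Poisson 95% intervals, and dotted lines mark the level of 3 counts in each library. Mir9-3 lies at 527 and 619 CPM in replicates 1 and 2, while Mir9-2 and the mir-124 rows lie at 5.10 CPM or less.

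All 3 mir-124 rows were near the limit of counting. Mir124a-1 (ENSMUSG00000065597.1, chr14:64590657-64590741), whose host Mir124a-1hg is also known as Rncr3, had 6 counts in replicate 1 and 23 in replicate 2. These are 2.00 CPM (0.732 to 4.34) and 5.10 CPM (3.23 to 7.66), a mean of 3.55 ± 2.20 CPM (SD, n = 2). All 85 bases of the hairpin lie in exons of the host.

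Mir124a-2 (ENSMUSG00000093073.1, chr3:17795662-17795770) had 7 counts in replicate 1 and 21 in replicate 2, or 2.33 CPM (0.936 to 4.80) and 4.66 CPM (2.88 to 7.12), a mean of 3.49 ± 1.65 CPM (SD, n = 2). Of its 109 bases, 27 lie in exons of the host Mir124-2hg. Mir124a-3 (ENSMUSG00000065454.1, chr2:180894040-180894107) had 6 counts in replicate 1 and 2 in replicate 2, or 2.00 CPM (0.732 to 4.34) and 0.444 CPM (0.0537 to 1.60), a mean of 1.22 ± 1.10 CPM (SD, n = 2). Its last 3 bases overlap an exon of the long non-coding gene Gm27032.

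The count of Mir124a-3 in replicate 2 was below the 3 counts that a count of 0 allows. Together the mir-124 rows held 19 counts in replicate 1 and 46 in replicate 2, or 6.32 CPM (3.80 to 9.87) and 10.2 CPM (7.47 to 13.6). Of the mir-124 counts Mir124a-1 took 31.6% in replicate 1 (exact binomial interval 12.6 to 56.6%) and Mir124a-3 as much, while in replicate 2 Mir124a-3 took 4.35% (0.531 to 14.8%). The mir-9 rows summed to 583 CPM (556 to 611) and 685 CPM (661 to 710). The mean sums were 8.26 ± 2.75 CPM for mir-124 and 634 ± 72.5 CPM for mir-9 (SD, n = 2 each).

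Per 100 nt of hairpin the order of mean levels was Mir9-3 at 636 ± 72.7 CPM, Gm25641 at 53.7 ± 6.26, Mir9-2 at 4.39 ± 0.328, Mir124a-1 at 4.17 ± 2.58, Mir124a-2 at 3.20 ± 1.51 and Mir124a-3 at 1.79 ± 1.61 (SD, n = 2 each). The steps from Mir9-3 to Gm25641 and from Gm25641 to Mir9-2 were larger than the spread between the libraries. The libraries of Mir9-2, Mir124a-1 and Mir124a-2 overlapped on this scale. Mir124a-3, at 2.93 in replicate 1 and 0.652 in replicate 2, overlapped the other mir-124 rows. In value it lay below Mir9-2, at 4.16 and 4.62. In replicate 1 this rests on 6 counts against 9, and the counting intervals overlapped (0.732 to 4.34 and 1.37 to 5.68 CPM). The ratio of Mir9-2 to Mir124a-1 per length was 1.77 in replicate 1 (0.563 to 6.05) and 0.770 in replicate 2 (0.374 to 1.54). Mir124a-2 stood at 0.728 times Mir124a-3 in replicate 1 (0.209 to 2.62) and 6.55 times in replicate 2 (1.60 to 57.6), so on this scale these copies kept no common order. By counts Mir124a-2 stood at 1.17 times Mir124a-3 in replicate 1 (0.336 to 4.20) and 10.5 times in replicate 2 (2.57 to 92.4).

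Among 1894 rows with an annotated length these levels put Mir9-3 at rank 120, Gm25641 at 250, Mir9-2 at 363, Mir124a-1 at 367, Mir124a-2 at 389 and Mir124a-3 at 436. In all, 1255 of the 1973 rows had 0 counts in both libraries.

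Reads that mapped to several places were set aside by the authors' counting. They numbered 2080061 in replicate 1, or 33.9% of all reads (exact binomial interval 33.8 to 33.9%), and 3270252 in replicate 2, or 34.5% (34.4 to 34.5%). The 6 rows together held 1771 counts in replicate 1 and 3135 in replicate 2. Over all gene rows, 0.692 multimapping reads were set aside for every count in replicate 1 and 0.725 in replicate 2. The files do not record which microRNAs those reads came from. The values above are thus levels of reads given to 1 copy, and the amount of mature miR-9 or miR-124 in the tissue cannot be read from them.

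**Figure D3:**
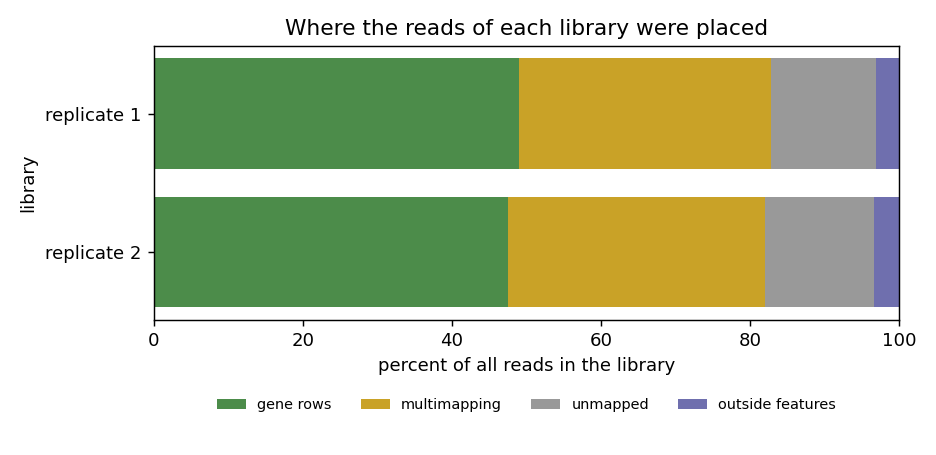
Placement of all reads in each library, as a percent of the library on the x axis. Gene rows hold 49.0% in replicate 1 and 47.5% in replicate 2, and multimapping reads 33.9% and 34.5%.

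Each host transcript that carries Mir9-1 or Mir124a-1 also carries a microRNA with no shared stretch, and these were picked for comparison after their values were seen. Mir3093 lies 340 bases before Mir9-1 in an intron of the same gene, Gm3764. The Gm25641 row had 53.2 and 62.8 CPM in replicates 1 and 2, against 38.2 and 35.7 CPM for Mir3093. Per length the Gm25641 row stood at 1.12 times Mir3093 in replicate 1 (0.876 to 1.44) and 1.42 times in replicate 2 (1.16 to 1.73). On that scale, which uses the 108 nt of the Gm25641 annotation, the rows could be told apart beyond counting error only in replicate 2. The Mir9-1 hairpin is 89 nt, close to the 87 nt of Mir3093, so this result depends on the length used. By counts the ratios were 1.39 (1.09 to 1.78) and 1.76 (1.44 to 2.15). Without length, the Gm25641 row thus lay above Mir3093 beyond counting error in both libraries.

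Mir3078 lies 443 bases after Mir124a-1 in Mir124a-1hg. Mir124a-1 had 6 and 23 counts in replicates 1 and 2, against 72 and 128 for Mir3078. Per length Mir124a-1 stood at 0.0853 times Mir3078 in replicate 1 (0.0303 to 0.195) and 0.184 times in replicate 2 (0.113 to 0.288), below it in both libraries. Mir3078 had 26.2 ± 3.14 CPM (SD, n = 2) and shares 0 of its 68 stretches with another locus.

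A list of 21 other microRNA genes known from neurons or the neural tube was set beside the members. It also holds Mir219a-2 and Mir338, which are markers of the oligodendrocyte lineage. Mir9-3, at a mean of 636 CPM per 100 nt, was above 12 of the 21 and below 9. Mir128-2 at 658, Mir138-2 at 637 and Mir7b at 615 lay within the SD of Mir9-3, 72.7 CPM per 100 nt (n = 2), so this split is not firm. The Gm25641 row was above 2, Mir212 and Mir218-1. Mir9-2 and the mir-124 rows lay below all 21, of which the lowest was Mir218-1, an intronic microRNA of Slit2, at 24.5 CPM per 100 nt. The list reached up to Mir137, a regulator of neuronal differentiation, at 8502 CPM per 100 nt, with a median of 411.

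On that scale Mir135b had 7182, Mir219a-2 2816, Mir153 2288, Mir128-1 999, Mir138-1 871, Mir132 828, Mir128-2 658 and Mir138-2 637 CPM per 100 nt. Below Mir9-3 came Mir7b at 615, Mir7a-1 (Mir7-1 in GENCODE) at 411, Mir135a-1 at 357, Mir219a-1 at 254, Mir338 at 248, Mir7a-2 (Mir7-2) at 236, Mir135a-2 at 222 and Mir218-2 at 152. The lowest besides Mir218-1 were Mir129-2 at 106, Mir129-1 at 104 and Mir212 at 44.0. By mean CPM without length, Mir7b at 683 lay above Mir9-3 at 573. Mir132 at 546, Mir128-2 at 500 and Mir138-2 at 453 then lay below it. Of the 21, 7 had no mature strand that recurs in a hairpin at another locus, 12 had 1 strand that recurs and 1 that does not, and 2, Mir219a-2 and Mir129-1, had a single listed strand that recurs. For the mir-9 copies both strands recur.

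The listed mature strands of 46 rows all recur at another locus, and Mir9-2, Mir9-3 and Gm25641 are 3 of these. The mature strands of miR-124 were not used, so the mir-124 rows are in none of the groups that follow. In the group of 46 the median level was 0 CPM, 33 rows (71.7%) had 0 counts in both libraries and 11 (23.9%) had at least 10 counts summed over both. Where only some of the listed strands recur, the median over 56 rows was 28.3 CPM and 40 rows (71.4%) reached 10 counts. Where none recurs, the median over 814 rows was 0.721 CPM and 348 rows (42.8%) reached 10 counts. Per 100 nt the medians were 0, 31.9 and 0.934 CPM in the same order.

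Among the other 43 rows of the first group, 1 lay above Mir9-3 per length. The highest were Mir219a-2 at 2816 CPM per 100 nt, Mir3074-1 at 343, Mirlet7c-2 at 274, Mir199b at 157 and Mirlet7a-1 at 156. Mirlet7c-2 and Mirlet7a-1 have both strands listed, as the mir-9 copies do, while Mir219a-2, Mir3074-1 and Mir199b have 1 listed strand. At the low end 33 rows had 0 counts, the first 5 by symbol being Gm27740, Gm27775, Mir1906-1, Mir1906-2 and Mir344. Mir9-2, the lowest mir-9 row, was below 7 of these 43 rows, and Mir9-3 was near the top of the group.

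By shared stretches, Mir9-2 was among 556 rows that share 50% or more, of which 533 (95.9%) had 0 counts in both libraries and 5 (0.899%) reached 10 counts summed. The other members were among 373 rows that share less than 50%, of which 250 (67.0%) had 0 counts and 92 (24.7%) reached 10. Mir9-2 and Mir124a-3 lie near the boundary. With stretches of 22 nt Mir9-2 shared 47.1%, and with stretches of 18 nt Mir124a-3 shared 54.9%. Of the 965 rows that share none, 396 (41.0%) had 0 counts and 346 (35.9%) reached 10. The rows differ in how many are expressed in hindbrain at all, and the part of that in these shares was not tested.

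**Figure D4:**
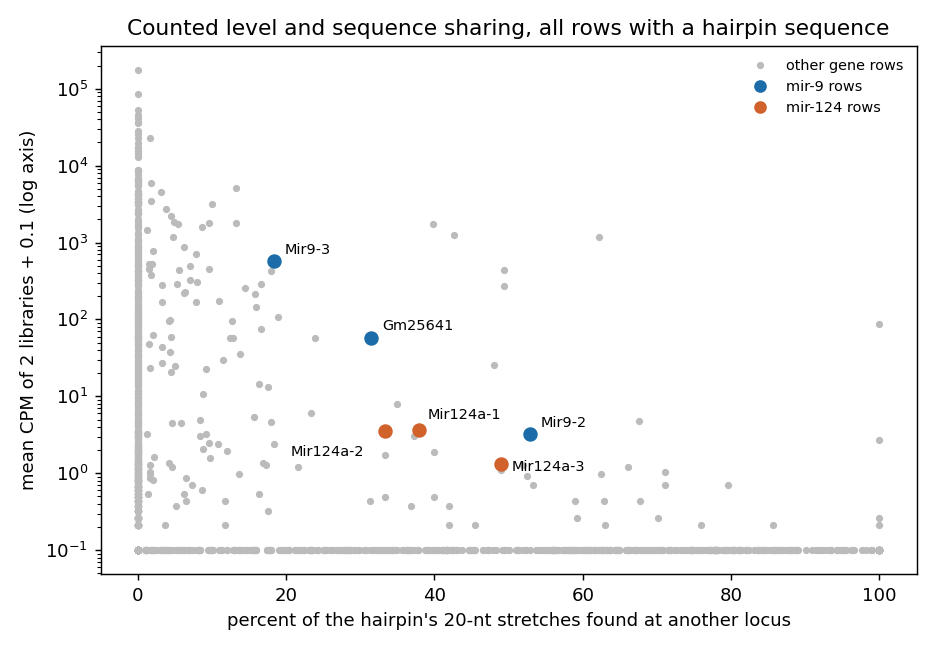
Mean CPM of both libraries plus 0.1 on a log axis against the percent of each hairpin's 20-nt stretches found at another locus, 1 point per row with a hairpin sequence. Mir9-3 lies at 18.3% and 573 CPM, and Mir9-2 at 52.8% and 3.16 CPM.

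Between the libraries, Mir9-3 stood at 527 CPM in replicate 1 and at 619 CPM in replicate 2. It was lower in replicate 1, with a log2 ratio of -0.20 (counting interval -0.29 to -0.11) with library sizes scaled by the trimmed mean of M-values (TMM). It passed the two-sided exact binomial test (Benjamini-Hochberg adjusted p = 4.87e-05 over 443 rows). The test sets these 2 libraries side by side and knows no error but that of counting. It called 37.0% of the rows tested, 20.8% higher and 16.3% lower in replicate 1, and of the 5 members tested it called 1. A call of this kind is thus common between these libraries. The median absolute log2 ratio of the rows tested was 0.20, equal to that of Mir9-3.

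The other tested members did not pass the exact binomial test. The log2 ratio of replicate 1 over replicate 2 was -0.20 for Gm25641 (-0.49 to 0.08, exact adjusted p = 0.302) and -0.12 for Mir9-2 (-1.49 to 1.17, exact adjusted p = 1.0). It was -1.32 for Mir124a-1 (-2.91 to 0.02, exact adjusted p = 0.127) and -0.97 for Mir124a-2 (-2.44 to 0.32, exact adjusted p = 0.254). Mir124a-3, with 8 counts in all, was under the minimum of 10 and was not tested. Its ratio was 4.61, with a counting interval from 0.824 to 46.7. In value 5 of the 6 rows were lower and 1 was higher in replicate 1, with a median log2 ratio of -0.20 against -0.01 over all rows tested.

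Markers of other cell types were present in both libraries at unequal levels, and none of those examined was at 0. Mir449a of multiciliated cells had 2879 and 6023 CPM in replicates 1 and 2, and Mir204 of choroid plexus had 1252 and 2216 CPM. The muscle microRNA Mir206 had 32.6 and 64.1 CPM. These were lower in replicate 1 in value, as Mir9-3 was. The erythroid Mir451a, at 152 and 57.5 CPM, was higher in replicate 1 in value. So were the cardiac and slow-muscle Mir208b at 100 and 17.7 CPM and the endothelial Mir126a at 20540 and 18917 CPM. The markers of the oligodendrocyte lineage went both ways in value. Mir219a-2 had 2804 and 2658 CPM, higher in replicate 1, and Mir338 had 224 and 263 CPM, lower in replicate 1. The neuronal microRNAs went both ways in value. Mir153 had 1707 and 1451 CPM in replicates 1 and 2 and Mir128-1 had 723 and 675 CPM, higher in replicate 1. Mir137 had 6132 and 6281 CPM and Mir138-1 had 846 and 879 CPM, lower in replicate 1. The part of cell makeup in the member ratios was not tested.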

How the data were processed

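The deposited tables hold raw read counts per microRNA gene, aligned to mm10 and counted on GENCODE M4, per the README deposited with them. For the aligner and the counter, no name was found: not given in the sources used here. Per the file headers' row names, unmapped, multimapping, unassigned and ambiguous reads were listed apart, and these rows stayed out of library sizes. In every row the first count column equalled the sum of the others. The column with nearly all counts was taken as the annotated strand. Multimapping reads are in no gene row.

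The rows were named by GENCODE M21 (GRCm38, the same assembly as mm10), which matched 1894 of 1973 identifiers. RefSeq tables on GRCm38.p6 gave the mature strands, listed for 916 rows. No genome sequence was used, so recurrence was counted among annotated hairpins and not in the genome.

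CPM and exact Poisson and binomial 95% intervals were computed in Python 3.11.15 with SciPy 1.17.1. With 1 group, edgeR's quasi-likelihood test could not be run. The libraries were compared row by row with an exact binomial test, two-sided, for rows with at least 10 counts summed, with TMM library sizes from edgeR 4.0.16, Benjamini-Hochberg adjustment and a threshold of 0.05. DESeq2 1.42.0 size factors, totals, other filters, the either-strand column and single libraries were alternatives. The counts of the libraries differed by more than sampling noise (chi-square 38758.1 on 442 degrees of freedom), so they were not counted as 1 library deposited more than once. The test recovered changes in simulated data that held counting error only. The libraries differed by more than that, so the simulation does not show how the test performs on them.

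The members and lists were chosen with earlier results of these data known. The named genes were the members, the list of 21 neural microRNA genes, and the 5 highest and 5 lowest of the other rows whose listed mature strands all recur. Likeness of pattern was not computed, since 2 libraries of 1 group give none.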

Additional observations from a re-analysis of the deposited data

Results flagged for a closer look

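The strand opposite Mir124a-3, which enters no comparison above, held 7 counts in replicate 2, more than the 3 that a count of 0 allows. Replicate 1 had 2 counts there. These were 25.0% of the either-strand counts in replicate 1 (exact binomial interval 3.19 to 65.1%) and 77.8% in replicate 2 (40.0 to 97.2%). In replicate 2 this opposite-strand share was above the 1.90% found over all gene rows. With either strand counted, Mir124a-3 would stand at 2.33 ± 0.470 CPM instead of 1.22 ± 1.10 CPM (SD, n = 2).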

How the results depend on the processing

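The summed level of the 6 rows, 642 ± 75.2 CPM (SD, n = 2), became 309 CPM with all reads as denominator, since gene rows hold under 50% of them. It moved by less than the SD with the either-strand column, TMM or DESeq2 size factors, and was 589 CPM in replicate 1 alone and 695 CPM in replicate 2 alone. The multimapping share was 39.9% of mapped reads. Among rows with at least 10 counts the class medians were 147 CPM where all listed strands recur, 131 CPM where some do and 71.2 CPM where none does, so their order changed with this filter. Matched on the first 18 bases, the median where some recur became 35.8 CPM. With either library left out, the median where none recurs was 0.665 CPM. A search of the whole genome for the mature strands was not run. The call on Mir9-3 and the missing calls on the other members held under every scaling and filter in which they were tested. In all, 153 to 167 rows were called, against 164 of 443 in the main setting. With at least 1 count in either library 153 of 718 rows were called, and with at least 10 counts in both 161 of 357. The share called thus changed with the filter. No ratio of the 5 tested members changed sign. Stretches of 18 and 22 nt were chosen after seeing the data. With them the share of Mir9-3 was 23.3% and 13.0%, that of Mir9-1 44.4% and 35.3%, and that of Mir9-2 58.2% and 47.1%. The share of Mir124a-3 was 54.9% and 42.6%. Mir9-2 and Mir124a-3 thus changed sides of the 50% boundary with the stretch length. No paired analysis was possible because both libraries belong to 1 group. Depth limits Mir9-2 and the mir-124 rows most: at 23 counts or fewer a library, the intervals of their ratios are wide.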
